A study of Mus musculus with 24 samples.

Results

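B16-OVA is a melanoma line of the mouse that was made to express ovalbumin, and its cells were profiled with a hairpin against Fto (shFto) or a control hairpin (shNC). Described here are 774 stretches of chromatin that gave an ATAC-seq peak in all 3 shFto libraries and in no shNC library after all lists were brought to one length. The regions were selected on the -log10 q of the peaks. The 67427 peaks with the highest -log10 q were kept in each of the 6 lists, the number in the smallest list, and peaks that overlapped by at least 1 base were merged. This gave 88084 merged regions, of which the 774 shFto-only regions are 0.879%. A further 1461 regions had a peak in all 3 shNC libraries and in no shFto library (shNC-only), and 49718 had a peak in all 6. Both lines have the C57BL/6 background and grew in medium with 5 µg/mL puromycin. The labels do not say which Fto hairpin the tumour libraries carried, nor whether replicates were separate cultures, so the p-values given here rest on a spread between libraries that may be technical. RNA-seq covered 3 shFto and 3 shNC libraries, and m6A-seq gave 1 peak list each for DMSO-treated shNC cells, DMSO-treated shFto cells and shNC cells given 5 µM Dac51, a compound known here by its code, each for 48 h.

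In the RNA libraries Fto, the gene targeted by the hairpin, was at 31.7, 33.5 and 28.3 CPM in shFto and 107, 108 and 91.8 in shNC cells (CPM are counts scaled to the library size; log2 fold change -1.72, edgeR adjusted p = 1.6e-10). Total counts ran from 11152404 to 19665589 per library. Melanocyte markers summed to 17721 to 18721 CPM in shFto and 14208 to 14819 in shNC cells, 7 of 7 detected. Immune markers summed to at most 3.76 CPM, with Ptprc, Cd3e, Cd8a and Adgre1 at 0 in all 6 libraries. Markers of fibroblast, endothelial and epithelial cells summed to 3.66 to 5.4 CPM in shFto and 6.2 to 8.87 in shNC cells, with Cdh5 and Krt5 at 0.

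FTO removes N6-methyladenosine (m6A), a methyl mark within messenger RNA that affects its splicing, decay and translation. ATAC-seq reads out where a transposase can insert into chromatin. Accessible sites lie mostly at promoters, which tend to be open in many cell states, and at distal elements such as enhancers, which differ more between states and can act on a gene from within its body or from a distance. A peak list holds the sites that pass a caller's threshold in one library, so a site missing from a list can still carry signal.

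Of the shFto-only regions, 19 lay over 22 of the 32851 promoter windows of the RefSeq table (GRCm38.p6, the same assembly as mm10), each 300 bases long with 250 before the start and 50 after it. These windows belong to 20 genes, 9 of them protein-coding, and are the places where sequence could be read from the reference. Shown are the windows of the 4 genes among them whose RNA passed the test between shFto and shNC cells, and one window inside Itga9 that holds a whole region. They were chosen after their values were seen. Each runs 5′ to 3′ on its gene's strand, and capitals mark the bases that lie inside the shFto-only region.
Cnrip1 promoter: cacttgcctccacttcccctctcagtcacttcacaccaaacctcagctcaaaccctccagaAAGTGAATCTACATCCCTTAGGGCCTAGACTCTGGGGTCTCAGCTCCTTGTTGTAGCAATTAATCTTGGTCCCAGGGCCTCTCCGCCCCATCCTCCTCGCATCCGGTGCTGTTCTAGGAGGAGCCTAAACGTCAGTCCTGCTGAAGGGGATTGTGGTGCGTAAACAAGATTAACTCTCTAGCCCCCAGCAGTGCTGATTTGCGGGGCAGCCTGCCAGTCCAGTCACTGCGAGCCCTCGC
Lin28b promoter: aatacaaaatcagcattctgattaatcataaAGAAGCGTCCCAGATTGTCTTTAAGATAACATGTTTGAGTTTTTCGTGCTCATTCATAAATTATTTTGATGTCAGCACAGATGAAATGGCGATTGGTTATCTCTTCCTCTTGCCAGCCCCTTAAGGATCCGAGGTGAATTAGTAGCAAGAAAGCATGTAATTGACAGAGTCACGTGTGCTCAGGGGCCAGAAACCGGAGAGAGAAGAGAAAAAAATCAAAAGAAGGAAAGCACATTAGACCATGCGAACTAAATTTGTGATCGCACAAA
Nt5c2 promoter: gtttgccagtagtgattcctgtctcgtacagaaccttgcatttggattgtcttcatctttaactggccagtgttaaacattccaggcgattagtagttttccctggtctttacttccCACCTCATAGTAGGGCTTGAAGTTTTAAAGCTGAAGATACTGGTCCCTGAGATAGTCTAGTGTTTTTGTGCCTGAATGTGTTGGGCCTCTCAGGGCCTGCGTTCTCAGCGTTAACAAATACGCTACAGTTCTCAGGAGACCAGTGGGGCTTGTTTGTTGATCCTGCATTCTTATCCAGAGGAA
Ppp1r18 promoter: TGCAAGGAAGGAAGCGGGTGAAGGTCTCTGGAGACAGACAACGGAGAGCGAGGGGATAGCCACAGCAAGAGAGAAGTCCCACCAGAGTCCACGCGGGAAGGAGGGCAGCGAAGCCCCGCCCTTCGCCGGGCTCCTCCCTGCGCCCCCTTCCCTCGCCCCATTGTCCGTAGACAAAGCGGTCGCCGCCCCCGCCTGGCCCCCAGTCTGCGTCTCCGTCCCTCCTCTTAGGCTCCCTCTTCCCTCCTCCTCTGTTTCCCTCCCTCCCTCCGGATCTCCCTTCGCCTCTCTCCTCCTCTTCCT
Gm51695 promoter, inside Itga9: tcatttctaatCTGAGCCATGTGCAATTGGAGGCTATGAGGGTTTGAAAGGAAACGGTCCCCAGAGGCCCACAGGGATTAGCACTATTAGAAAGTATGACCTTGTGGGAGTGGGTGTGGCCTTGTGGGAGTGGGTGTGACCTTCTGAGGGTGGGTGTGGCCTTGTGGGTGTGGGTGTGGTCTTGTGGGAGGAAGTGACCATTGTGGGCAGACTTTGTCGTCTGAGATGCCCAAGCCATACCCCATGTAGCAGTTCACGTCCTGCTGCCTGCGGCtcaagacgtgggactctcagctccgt

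The Cnrip1 window is chr11:17051609-17051908 on the plus strand, with 239 bases inside the region, and the Lin28b window is chr10:45470152-45470451 on the minus strand, with 269. For Nt5c2 the window is chr19:46937319-46937618 on the minus strand, with 183 bases inside the region. The Lin28b and Nt5c2 windows belong to starts inside the gene body, where the regions lay 16 kb and 52 kb from the nearest end of the gene. All 300 bases of the Ppp1r18 window, chr17:35865878-35866177 on the plus strand, lie inside the region. The last window, chr9:118887173-118887472 on the minus strand, belongs to the noncoding gene Gm51695 and holds all 263 bases of a region within the Itga9 gene body. GC content differed widely, from 39% in the Lin28b window to 65.7% in that of Ppp1r18. Over the 22 windows its median was 53.2%, near the 52.7% of all promoter windows, against 62% of the windows under regions open in all libraries.

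Among 18 short motifs searched on both strands, the Cnrip1 window held the GC box (GGGCGG) and the FOX motif (TGTTTAC), and the Lin28b window held the E-box CACGTG, the CCAAT box and the GATA motif (AGATAA). The Nt5c2 window held the TEAD motif (GGAATG) on the other strand, in bases outside the shFto-only region. The Ppp1r18 window held the GC box and the SOX motif (ACAAAG), and the Itga9 window held CATGTG, the E-box that MITF can bind, with the SOX motif, the CCAAT box and the TFAP2 motif (GCCNNNGGC). The search covered whole windows, also bases outside the region, and the Tbrg3 window had only 2 bases inside one. Over all 22 windows CATGTG was found in 22.7%, against 14.2% of all promoter windows, 18.9% of windows under shNC-only regions and 7.56% of windows under all-library regions. In the Gm36845 and Pwwp3b windows it lay only outside the region. The GC box was found in 22.7%, against 35.7% of all promoter windows and 67.2% under all-library regions. The letters of AP-1 (TGANTCA), found in 7.81% of all promoter windows, were in none of the 22, which says only that these letters are absent from these windows. With so few windows, 1 window more or fewer moves these shares by several points, some windows overlap each other, and a match is not a site.

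The regions were weak peaks, low in each kept list. In shFto replicates 1 and 2 the weakest lay at or near the line of selection. In replicate 3, where every peak was kept, the line was at a -log10 q of 1.42 and the weakest region at 2.81. The median -log10 q of the regions was 8.44, 7.35 and 7.82 in shFto replicates 1 to 3, where the medians of the kept lists were 22.9, 20.5 and 21.5. The authors' peak caller gave them a median fold enrichment over local background of 6.14, 6.07 and 5.93. Between 70.4% and 80.4% of them lay in the lowest quartile of a kept list, and at most 1.16% in its upper part above the median. Their median width was 291 bases, against 316 for shNC-only regions and 438 for regions in all 6 lists. Libraries differed moderately at a region: the highest of the 3 shFto -log10 q was a median 1.62 times the lowest, and at most 4.51 times. These values chose the regions, so they are a description and were not tested, and the reads behind a peak are not in the lists.

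**Figure D1:**
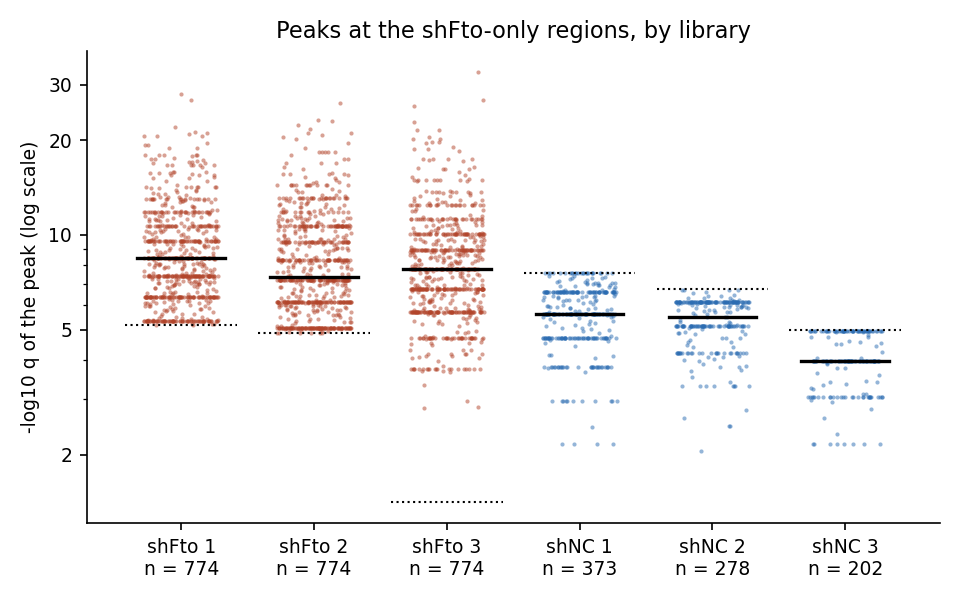
The vertical axis is the -log10 q of each peak on a log scale, and each point is a peak at a shFto-only region in 1 ATAC-seq library. Thick lines are medians, dotted lines mark the lowest -log10 q kept in that library, and shNC points are deposited peaks below that line. The shNC medians are 5.62, 5.49 and 3.98, over only the regions with such a peak. The rule capped the shNC values at the lines, so their place below the shFto medians is not a result. The lines for shNC libraries 1 and 2 lie above those of all shFto libraries.

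The line differed between libraries, and the shNC lists were longer. The deposited lists held 70508, 72055 and 67427 peaks for shFto and 81944, 77226 and 74551 for shNC, so the lowest kept -log10 q was 5.16, 4.87 and 1.42 for shFto and 7.59, 6.74 and 4.97 for shNC. Below that line the shNC lists still held peaks at many of the regions: 373, 278 and 202 of the 774 had one in replicates 1 to 3. Counted per region, 249 had such a lower-ranked peak in 1 shNC list, 197 in 2 and 70 in all 3. That left 258 regions (33.3%) with no deposited shNC peak of any rank. Where a region is named below without a word on shNC peaks, lower-ranked ones may be present. Just outside the rule were 1486 regions with peaks in 3 shFto lists and 1 shNC list, whose shNC peak had a median -log10 q of 9.26. Another 2167 regions had peaks in 2 shFto lists and no shNC list, with a median of their mean shFto -log10 q of 7, against 8.12 for the shFto-only regions.

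Most of the regions lay away from gene starts. Within 1 kb of a RefSeq start were 53 of the 765 on chromosomes with starts in the table (6.93%), against 4.64% of shNC-only regions, 22.6% of all-library regions and 15.5% of all merged regions. Within a protein-coding gene body were 441 (57%), close to the 56.6% of shNC-only regions and below the 64.5% of all-library regions. The table does not tell exons from introns. The median distance to a start was 20.8 kb, and only 20 regions had the next shFto-only region within 50 kb on the chromosome. Most thus stood singly, within genes or away from starts.

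A small subset stood out by low fold enrichment. In 24 regions (3.1%) the fold enrichment was under 4 in all 3 shFto lists. Of these, 12 (50%) lay within 1 kb of an all-library region and 17 (70.8%) within 5 kb of a start, against 9.6% and 16.1% of the other 750. These shares were not tested. No deposited shNC peak lay at 16 of the 24 (66.7%), against 32.3% of the others.

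The 6 regions with the highest lowest-of-3 -log10 q were taken as the strongest. First among them was a 376-base region in the body of B4galt4, a galactosyltransferase of the Golgi, at chr16:38753622-38753997. Its -log10 q was 27.9, 26.3 and 18.8 and its fold enrichment 13.2, 13.1 and 10.9 in the 3 shFto libraries, with a shNC peak of -log10 q 3.05 in replicate 3 only. B4galt4 RNA was 7.5, 6.8 and 5.72 CPM in shFto cells and 3.34, 2.85 and 4.85 in shNC cells. The shFto libraries were all above the shNC libraries. The log2 fold change was 0.86 ± 0.24 (SE), with an adjusted p of 0.00843 by edgeR's quasi-likelihood test, which was 0.0615 without shFto replicate 1.

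The second, at chr8:111595801-111596141 inside Znrf1, a ubiquitin ligase gene, had -log10 q values of 22.1, 18 and 26.8. A shNC replicate 1 peak of 7.59 lay there, at the lowest value kept in that list. The region was 29.6 kb from Ldhd, which encodes D-lactate dehydrogenase. Ldhd RNA was low, at 2.17 ± 0.481 CPM against 3.07 ± 0.251 (SD, n = 3 each, as for all CPM means here), and did not pass the test (edgeR adjusted p = 0.186). The region in Lrrc75b at chr10:75551101-75551601 reached 17.6, 23 and 15, with a lower-ranked peak of 4.39 in shNC replicate 2. Lrrc75b RNA was 5.32, 4.53 and 8 CPM in shFto cells and 3.95, 2.5 and 2.04 in shNC cells. It rose by 1.10 ± 0.28 (log2, SE; edgeR adjusted p = 0.00516). Both B4galt4 and Lrrc75b were thus weakly expressed genes with a strong region in the gene body and more RNA in shFto cells.

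The other 3 strongest regions had no shNC peak of any rank. In Lrrc1, a cell-polarity scaffold gene, the region at chr9:77469847-77470163 had -log10 q values of 20.6, 14.4 and 22.8. Lrrc1 RNA was nevertheless alike in mean, 15.5 ± 1.03 against 15.9 ± 1.26 CPM, a log2 difference of -0.03 ± 0.13 (SE; edgeR adjusted p = 0.874). The region at chr13:111097337-111097664 lay 158 kb from the nearest protein-coding gene, Actbl2, too far for a gene to be assigned. In Zdhhc18, a palmitoyltransferase gene, the region at chr4:133609784-133610049 had -log10 q values of 17.3, 13.7 and 20.5, and the RNA went down. Zdhhc18 was at 18.6, 18.5 and 20.5 CPM in shFto cells and 27.9, 29.2 and 24.2 in shNC cells, and fell by 0.50 on the log2 scale (SE 0.12, edgeR adjusted p = 0.00333). A strong region was therefore found beside genes whose RNA rose, fell or passed no test.

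A -log10 q of at least 10 in all 3 shFto lists was reached by 44 regions, and 23 of these had no deposited shNC peak. Of the 23, 19 had a gene end within 50 kb, and 16 of those genes were tested, of which 4 rose and 3 fell, where 15.9% and 16.9% of all 11718 genes tested did. With so few genes these counts are read no further. The 4 were Arsa, Dnajb11, Mon2 and Slc41a3, and the 3 were Myh14, Zdhhc18 and Pla2g6. Beside the region at chr15:89474659-89474926, Arsa, the lysosomal arylsulfatase A, was at 81.1 ± 2.65 CPM in shFto cells against 53.1 ± 0.834 in shNC cells, a log2 rise of 0.61 (edgeR adjusted p = 2.17e-05). Beside that at chr7:44675310-44675526, Myh14, a non-muscle myosin heavy chain, was at 4.43 ± 0.964 against 10.7 ± 1.26 CPM and fell by 1.25 on the log2 scale (edgeR adjusted p = 9.27e-05). Dnajb11, a chaperone of the endoplasmic reticulum, was at 252 ± 24.4 against 207 ± 9.44 CPM, Mon2 at 125 ± 3.84 against 106 ± 3.31 and Slc41a3, a transporter, at 6.44 ± 1.11 against 4.03 ± 1.11, with edgeR adjusted p of 0.0135, 0.0252 and 0.034. These genes were picked out after their values were seen.

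RNA-seq was not used to choose the regions, so the genes beside them could be tested. Each region was given the protein-coding gene whose nearest end lay within 50 kb of its centre. This held for 576 regions (74.4%) and gave 563 genes, of which 375 passed the filter on low counts. Of the 375, 95 rose in shFto cells (25.3%) and 42 fell (11.2%) at an adjusted p under 0.05. Over all 11718 genes tested, 15.9% rose and 16.9% fell. The median log2 fold change was 0.08 beside shFto-only regions and -0.003 over all genes. Genes beside shNC-only regions went the other way, with 13.8% rising, 23.2% falling and a median of -0.05 over 689 genes, while the 10440 beside all-library regions were near the background, at 16.5% and 17.4%. The genes beside shFto-only and shNC-only regions share 37 names, 6.57% and 3.93% of the 2 lists. No test of these shares was made, since the regions were chosen with earlier results known.

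Most genes beside the regions nevertheless passed no test: 238 of the 375 were not called. The genes beside the regions were more abundant than genes in general, with a median of 50.8 CPM against 35.8, and the part of that in the counts was not tested. Without TMM scaling, 118 rose (31.5%) and 36 fell (9.6%), where 20.3% and 13.5% of all genes did. Without RNA shFto replicate 1 the falls dropped to 27 of 378 (7.14%), where 10.5% of all genes fell.

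**Figure D2:**
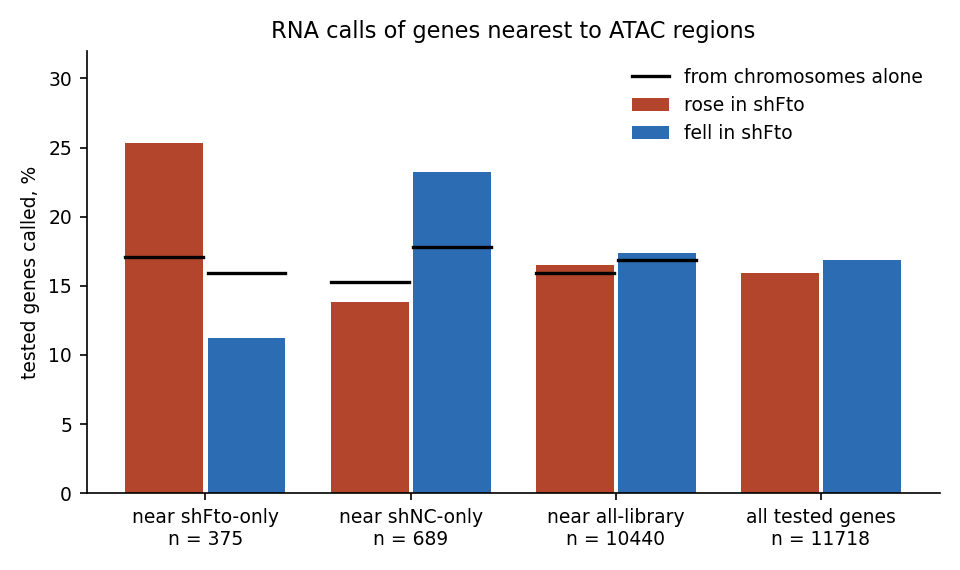
The vertical axis is the percent of tested genes that rose or fell in shFto cells (edgeR quasi-likelihood, adjusted p under 0.05), for genes beside shFto-only, shNC-only and all-library ATAC regions and for all tested genes. Black lines give the percent reached if each gene took the share of its own chromosome. Beside shFto-only regions 25.3% rose, above the line at 17.1%, and 11.2% fell, below the line at 15.9%.

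By kind of region, the share of rises was 27.8% of 133 genes beside regions with no deposited shNC peak and 23.7% of 245 beside those with a lower-ranked one. It was 24.5% beside regions inside a gene body and 26.6% beside those outside. The share of falls had a wider range. Within 10 kb of the gene end, 30 of 175 genes fell (17.1%), near the background, whereas at 10 to 50 kb 12 of 204 did (5.88%). Beside the 53 regions within 1 kb of a start, 10 of 37 genes rose (27%) and 9 fell (24.3%).

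The regions were unevenly spread over the chromosomes, and RNA was too. Chromosomes 16, 9, 17 and 10, taken after the counts were seen, held 212 of the regions (27.4%), but 17.6% of all merged regions and 13.5% of shNC-only regions. Chromosome 16 held 45 shFto-only against 32 shNC-only regions, and only chromosomes 16, 9 and 17 held more of the former. At the other end, chromosomes 12 and 18 held 25 shFto-only and 152 shNC-only regions. On chromosome 16 the median RNA log2 fold change over 370 tested genes was 0.23, the highest of 20 chromosomes. Its share of all RNA counts was 2.49%, 2.51% and 2.42% in shFto and 2.12%, 2.12% and 2.07% in shNC libraries. Its share of kept ATAC peaks was 3.26%, 3.28% and 3.24% against 3.07%, 3.06% and 2.99%. Chromosome 16 thus stood higher in shFto cells in both readouts, with no overlap between the groups, and so did chromosomes 10, 3 and 6. On chromosome 9 the share of kept peaks was higher, at 5.42%, 5.39% and 5.37% against 5.2%, 5.29% and 5.2%, but the share of RNA counts was lower, at 6.04%, 5.92% and 6.01% against 6.12%, 6.1% and 6.23%. On chromosome 18 the median was -0.13, the lowest, with 9 shFto-only and 61 shNC-only regions.

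Over the 20 chromosomes the log2 ratio of shFto-only to shNC-only regions and the median RNA change had a Pearson correlation of 0.63 and a Spearman correlation of 0.57, as a description of points that share libraries and differ in gene number. The RNA share of a chromosome was higher in all 3 shFto libraries than in any shNC library on 7 chromosomes and lower on 10. If each gene beside a shFto-only region took its chromosome's own share, 17.1% would rise and 15.9% fall. The observed share of rises was above the chromosome's own on 15 of the 20. Off chromosome 16, 80 of 350 genes rose (22.9%) and 41 fell (11.7%). Of the 25 tested genes beside regions on chromosome 16 itself, 15 rose and 1 fell, where 35.4% and 2.97% of all its tested genes did.

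**Figure D3:**
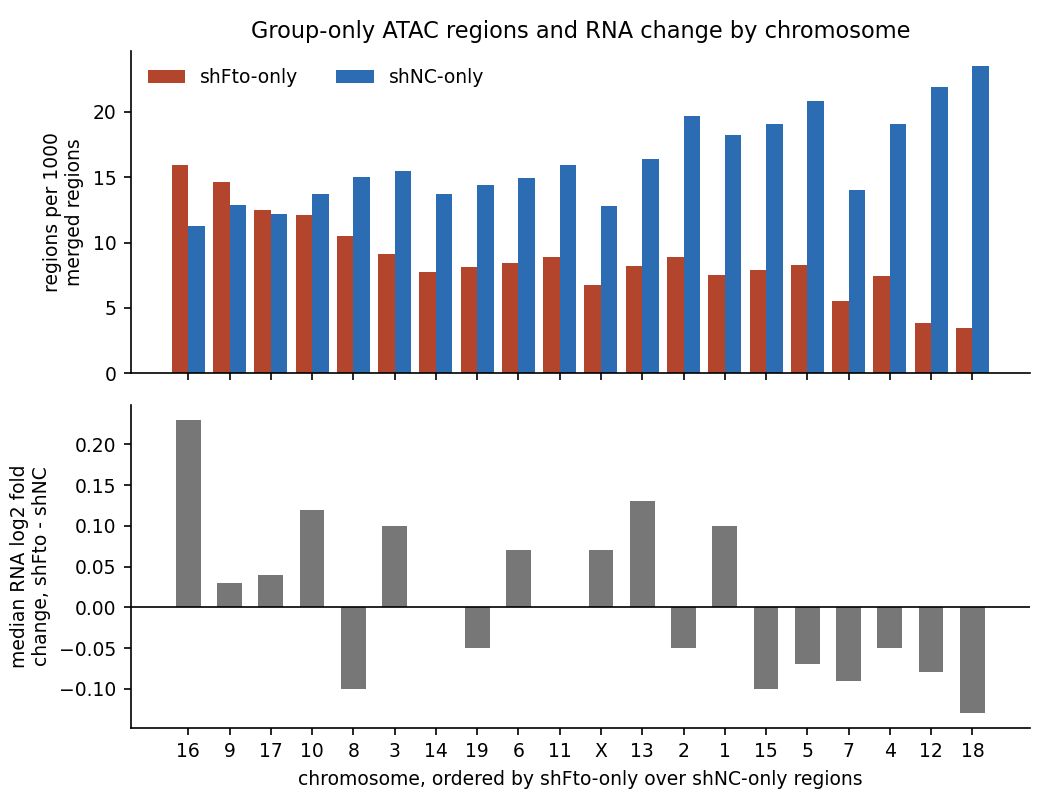
The upper axis is the number of shFto-only and shNC-only regions per 1000 merged regions on each chromosome, and the lower axis the median RNA log2 fold change of its tested genes, shFto minus shNC. Chromosomes are ordered by the ratio of the bars, from 16 with 15.9 and 11.3 per 1000 to 18 with 3.47 and 23.5 per 1000.

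The 10 largest rises among abundant genes beside the regions included a growth factor receptor, a BMP receptor, an integrin chain and a WNT feedback gene. Met encodes the receptor tyrosine kinase for hepatocyte growth factor, and a region lay in its body at chr6:17477863-17478142, 14 kb from the start, with fold enrichments of 6.96, 7.48 and 4.67 and no shNC peak. Met RNA was 908, 922 and 807 CPM in shFto cells and 264, 282 and 256 in shNC cells. It rose by 1.72 ± 0.09 (log2, SE; edgeR adjusted p = 2.5e-11), and the groups were far apart. Hpse encodes heparanase, which cleaves heparan sulfate of the matrix, and its region at chr5:100685709-100685982 was weak, with -log10 q values of 6.34, 7.2 and 5.71 and a lower-ranked peak of 6.59 in shNC replicate 1. Hpse RNA was 19.1, 22.8 and 18.2 CPM against 5.92, 6.22 and 5.83, a log2 rise of 1.73 ± 0.15 (SE; edgeR adjusted p = 9.98e-08). A weak region thus stood beside one of the largest RNA changes.

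Etv5, an ETS factor induced by MAPK signalling, held a region at chr16:22408971-22409253 with -log10 q values of 20.9, 7.2 and 7.82, high in the first library only. Its RNA was 16.4, 17.9 and 16 CPM in shFto and 8.96, 7.73 and 7.94 in shNC cells, a log2 rise of 1.03 ± 0.15 (SE; edgeR adjusted p = 3.21e-05). Itga9, an integrin alpha chain, held the region whose sequence is given above inside the Gm51695 window, with fold enrichments of 5.14, 7.21 and 6.67 and no shNC peak. Itga9 RNA was 59.5, 60.6 and 68.8 CPM against 36.1, 33.3 and 27.6, a log2 rise of 0.96 ± 0.11 (SE; edgeR adjusted p = 2.29e-06). Gm51695 itself was not tested.

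Beside Bmpr2, the type II receptor for bone morphogenetic proteins, the region at chr1:59762713-59762985 lay 1.43 kb from its start and 0.149 kb from an all-library region. Bmpr2 RNA was 76, 79.7 and 65.4 CPM in shFto and 46.6, 45 and 37 in shNC cells, a log2 rise of 0.78 ± 0.10 (SE; edgeR adjusted p = 1.77e-05). Axin2 is a scaffold that restrains WNT signalling and is itself a WNT target. A region at chr11:108902608-108902981, with no shNC peak, lay 15 kb outside the gene on the side of its start. Axin2 RNA was 19.9, 19.4 and 19.8 CPM against 11.2, 10.6 and 12.5, a log2 rise of 0.79 ± 0.13 (SE; edgeR adjusted p = 0.000182). In both genes the groups did not overlap, as the choice of the 10 required. Intu, a planar polarity and cilium gene, Nr5a1, a nuclear receptor of steroid-making tissue, Ppp2r3a, a regulatory subunit of phosphatase PP2A, and Csrp2, a LIM-domain protein, made up the 10. Their log2 fold changes were 0.95, 0.82, 0.81 and 0.79, with edgeR adjusted p between 9.98e-08 and 0.000891. The Intu region had -log10 q values of 5.34, 5.08 and 8.43 in shFto libraries and a lower-ranked peak of 6.59 in shNC replicate 1.

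**Figure D4:**
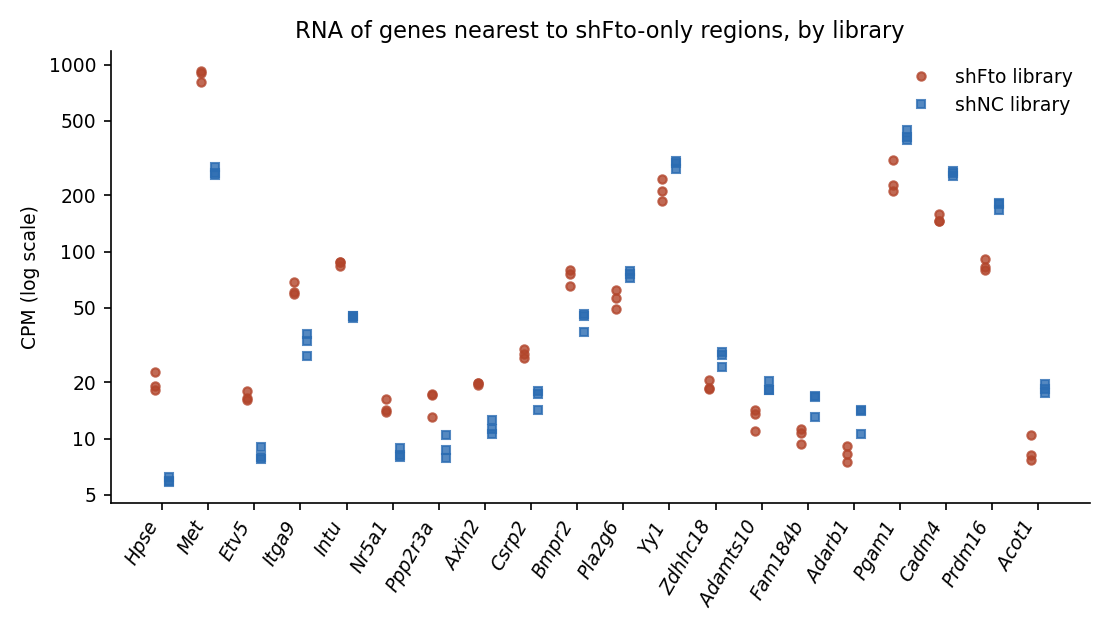
The vertical axis is RNA in CPM on a log scale, with 1 point per library, for the 10 largest rises and 10 largest falls among genes nearest to a shFto-only region, ordered by log2 fold change. The shFto and shNC points of these genes do not overlap, as the choice of genes required, and Met is the most abundant of the 20, at 807 to 922 CPM in shFto libraries.

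The 10 largest falls included a chromatin regulator, a zinc-finger factor, a glycolytic enzyme and an adhesion molecule. Prdm16, a chromatin regulator known for brown fat identity, held a region at chr4:154351749-154352005 with fold enrichments of 6.61, 7.79 and 5.44 and a lower-ranked peak in shNC replicate 2. Prdm16 RNA was 82.6, 91 and 80.2 CPM in shFto cells and 179, 183 and 166 in shNC cells. It fell by 1.06 on the log2 scale (SE 0.08, edgeR adjusted p = 1.28e-08). So a shFto-only region lay in a gene with less RNA in shFto cells. Acot1, an acyl-CoA thioesterase, was at 7.72, 8.2 and 10.4 CPM against 19.6, 18.5 and 17.6 and fell by 1.07 (SE 0.15, edgeR adjusted p = 2.79e-05), beside the region at chr12:84020653-84020914. Cadm4, a cell adhesion molecule, was at 145, 146 and 159 CPM against 265, 255 and 270 and fell by 0.81 (SE 0.08, edgeR adjusted p = 3.08e-07), beside the region at chr7:24480177-24480393, 1.74 kb from its start.

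Pgam1, the glycolytic phosphoglycerate mutase, was at 226, 210 and 308 CPM against 409, 398 and 445 and fell by 0.75 (SE 0.11, edgeR adjusted p = 4.88e-05). Its region at chr19:41908853-41909142 had -log10 q values of 5.79, 8.33 and 5.12 in shFto libraries. Lower-ranked peaks there had 5.25 and 6.66 in shNC replicates 1 and 2. Counts of Acot1 and Pgam1 are uncertain where close copies of them share reads. Yy1, a zinc-finger factor, was at 186, 211 and 244 CPM against 307, 297 and 277 and fell by 0.46 (SE 0.09, edgeR adjusted p = 0.000883). Adarb1, an RNA-editing deaminase, Fam184b, Adamts10, a matrix metalloprotease, and Pla2g6, a phospholipase, also fell, with log2 fold changes of -0.63, -0.58, -0.54 and -0.43 and edgeR adjusted p between 0.0016 and 0.00676. With Zdhhc18 these are the 10.

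Genes of 17 lists were looked up beside the regions. Of all 11718 tested genes 375 were beside a region, and the lists were not tested against that share. Over all tested genes 15.9% rose and 16.9% fell. So few genes lay beside a region in each list that their directions are read no further. Of 25 tested matrix and adhesion genes 7 rose and 10 fell, and the 2 tested beside a region, Col12a1 and Thbs2, both rose. Col12a1 encodes a collagen that associates with fibrils, and its region at chr9:79634232-79634520 in the gene body had -log10 q values of 9.55, 11.9 and 3.75 and no shNC peak. Col12a1 RNA was 15.6, 14.2 and 14.2 CPM in shFto and 3.11, 3.72 and 2.53 in shNC cells, a log2 rise of 2.22 ± 0.19 (SE; edgeR adjusted p = 4.28e-08). That is the largest log2 rise among the genes named here, though its mean of both groups was under the 10 CPM asked of the 10 largest rises. Thbs2, a matrix glycoprotein, was low at 2.02 ± 0.551 against 0.923 ± 0.209 CPM, a log2 difference of 1.11 (edgeR adjusted p = 0.0395). Without shFto replicates 2 or 3 or shNC replicates 1 or 3, its adjusted p was 0.0967, 0.138, 0.101 and 0.107.

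Of 15 tested early response and MAPK feedback genes 10 rose and 1 fell, where 15.9% and 16.9% of all tested genes did. Both with a region, Etv5 and Dusp4, rose, as did most of the list. Dusp4, a phosphatase that switches off MAP kinases, held a region at chr8:34811270-34811519 with low fold enrichments of 3.03, 2.9 and 2.76, and its RNA was 231, 227 and 289 CPM against 159, 159 and 141. The log2 rise was 0.70 ± 0.09 (SE; edgeR adjusted p = 1.78e-05). Of 13 tested BMP, SMAD and ID genes 9 rose and 1 fell, and Bmpr2 was the only one beside a region. Of 17 tested melanocyte and pigment genes 14 rose and 0 fell, and only Bace2, a protease that processes the melanosome protein PMEL, had one, 43.4 kb away. The -log10 q there was 8.45, 8.32 and 3.75 in shFto libraries, and lower-ranked shNC peaks had 6.59, 5.14 and 2.17. Bace2 RNA was 230, 240 and 240 CPM against 165, 170 and 191, a log2 rise of 0.43 ± 0.08 (SE; edgeR adjusted p = 0.000447). Most of the genes that rose in these lists had no shFto-only region as their neighbour, which is so for most tested genes.

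Of 26 tested glycolysis genes 4 rose and 14 fell, where 15.9% and 16.9% of all tested genes did. Pgam1 fell, as given above, and Pfkfb3, which makes the activator of phosphofructokinase, was at 48.4 ± 1.84 against 41.9 ± 3.25 CPM and did not pass the test (edgeR adjusted p = 0.106; 0.045 without TMM scaling). Of 12 tested AP-1 factors 3 rose and 4 fell, and Maf, at 30.1 ± 1.02 against 38.7 ± 2.81 CPM, fell by 0.36 on the log2 scale (edgeR adjusted p = 0.00987). Its adjusted p was 0.064 without shFto replicate 1 and 0.06 without shNC replicate 1. Of 16 tested hypoxia genes 2 rose and 5 fell. P4ha1, a collagen prolyl hydroxylase of that list, was at 62.9 ± 9.93 against 50.8 ± 4.06 CPM, a log2 rise of 0.30 (edgeR adjusted p = 0.039), with overlapping groups. Its adjusted p was 0.0845, 0.23, 0.134 and 0.0968 without shFto replicates 1 or 2 or shNC replicates 1 or 2, and 0.0582 with a replicate block.

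The other 5 tested list genes to which a region was assigned passed no test. Slc7a5, an amino acid transporter, was at 289 CPM in both groups (edgeR adjusted p = 0.984), and Ets1, an ETS factor with lower-ranked peaks in all 3 shNC lists, at 491 ± 14.7 against 444 ± 18.8 CPM (edgeR adjusted p = 0.169). Cd276, an immune checkpoint ligand, was at 8.53 ± 1.98 against 7.78 ± 1.55 CPM (edgeR adjusted p = 0.624). Lower-ranked peaks lay at the Slc7a5 region in shNC replicates 1 and 3 (-log10 q 7.58 and 4.94) and at the Cd276 region in replicates 1 and 2 (5.95 and 5.89). In the m6A machinery, Zc3h13, a writer subunit, was at 116 ± 0.612 against 118 ± 12.7 CPM (edgeR adjusted p = 0.79). Ythdf2, a reader that directs marked RNA to decay, was at 87.8 ± 3.81 against 78 ± 5.62 CPM (edgeR adjusted p = 0.123; 0.047 without TMM scaling). Tfap2c, Pecam1 and Cdh5 lay beside a region but were too low to be tested. In the lists of these genes, 4 of 17 tested neural crest regulators rose and 1 fell, 8 of 16 ATF4 and amino acid genes rose and 1 fell, 2 of 6 checkpoint genes rose and 0 fell, and 2 of 18 m6A genes rose and 5 fell. No gene of the C/EBP, semaphorin, MHC class I or interferon lists was the nearest within 50 kb of a shFto-only region. In these lists 1 of 4, 6 of 20, 7 of 12 and 3 of 15 tested genes rose and 0, 7, 1 and 3 fell. Over all tested genes 15.9% rose and 16.9% fell. A region did lie in the body of Sema3a, of the semaphorin list, and in that of Sox5, of the neural crest list. Neither gene was assigned one.

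Returning to the promoters shown above, Cnrip1, whose product binds the cannabinoid receptor CB1, was low in shNC cells, at 0.38, 0.465 and 0.702 CPM. In shFto cells it was at 2.4, 1.66 and 1.22 CPM, a log2 rise of 1.75 ± 0.47 (SE; edgeR adjusted p = 0.00699), and its region had fold enrichments of 5.19, 5.71 and 11.9. Lin28b, an RNA-binding protein that blocks maturation of let-7, was at 11.2, 9.42 and 7.8 CPM against 5.54, 6.1 and 6.18, a log2 rise of 0.67 ± 0.19 (SE; edgeR adjusted p = 0.00932). Both genes were higher in every shFto library than in any shNC library. Without shFto replicate 1 their adjusted p was 0.0832 and 0.0989. The Cnrip1 region had lower-ranked peaks of -log10 q 2.96 and 3.98 in shNC replicates 1 and 3, and the Lin28b region one of 4.69 in replicate 1.

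Nt5c2, a cytosolic nucleotidase, was at 69.2, 72.4 and 64.8 CPM against 52.5, 61.4 and 49.5, a log2 rise of 0.33 ± 0.10 (SE; edgeR adjusted p = 0.0115). Its adjusted p was between 0.0503 and 0.051 without shFto replicate 1 or shNC replicates 1 or 3. The Nt5c2 region had -log10 q values of 5.34, 11.3 and 10.8 in shFto libraries and lower-ranked peaks of 6.12 and 3.05 in shNC replicates 2 and 3. Ppp1r18, an actin-binding partner of phosphatase PP1, was at 78.7, 78.5 and 91 CPM against 94, 95.3 and 104 and fell by 0.24 on the log2 scale (edgeR adjusted p = 0.04). Its adjusted p was between 0.0693 and 0.192 without any 1 library other than shFto replicate 3, and 0.104 without TMM scaling. Of the 8 tested genes with a promoter window under a region, 3 rose and 1 fell, where 15.9% and 16.9% of all genes tested did. Beside Cnrip1, the log2 fold changes of these called genes ran from -0.24 to 0.67.

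Of the 5 most abundant genes with a start within 1 kb of a region, 1 rose, 2 fell and 2 passed no test. Rpn1, of the oligosaccharyltransferase, was at 995 ± 34.7 against 914 ± 11.9 CPM, and Sptlc2, of serine palmitoyltransferase, at 338 ± 14.5 against 321 ± 6.59, with edgeR adjusted p of 0.256 and 0.511. Rai1, a transcription regulator, was at 188 ± 33.8 against 241 ± 0.417 CPM and fell by 0.36 on the log2 scale (edgeR adjusted p = 0.00931; 0.0659 without shFto replicate 1). Cd81, a tetraspanin, was at 142 ± 9.69 against 165 ± 3.76 CPM and fell by 0.22 on the log2 scale (edgeR adjusted p = 0.041), a call lost without any 1 library but shFto replicate 3 (adjusted p 0.073 to 0.183), without TMM scaling (0.122) and with no filter on low counts (0.0631). Kif1b, a kinesin, was at 101 ± 4.45 against 82.3 ± 8.02 CPM, a log2 rise of 0.29 (edgeR adjusted p = 0.0135), with 0.0504 and 0.0548 without shNC replicates 1 or 3. These 5 regions lay 0.195 to 0.5 kb from an all-library region.

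One gene, Gm829 on chromosome 4, was nearest to 3 regions, and 11 genes were nearest to 2. The 3 regions lay at chr4:45641817-45642095, chr4:45731149-45731361 and chr4:45738385-45738704, the last with -log10 q values of 13.8, 20.1 and 10.2. Gm829 was at 9.54 ± 1.59 against 7.55 ± 1.87 CPM, with overlapping groups (edgeR adjusted p = 0.194).

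The m6A lists, made from other libraries, were read for the genes beside the regions. An m6A peak was listed for 49.9% of the 375 genes in shNC, 61.6% in shFto and 54.4% in Dac51-treated cells, against 44.2%, 53.6% and 49.9% of all tested genes. Of the 95 that rose, 48.4%, 69.5% and 54.7% had one, and of the 42 that fell 57.1%, 57.1% and 61.9%. There is 1 list per condition, so no test was possible, and the lists held 8479, 10811 and 9850 peaks. The genes beside the regions were also more abundant, and the part of abundance in these shares was not tested.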

How the data were processed

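Peaks were deposited by the authors as 1 list per ATAC-seq library, with a fold enrichment ratio, a -log10 p and a -log10 q for each peak and a score of 10 times the -log10 q. Per the submitters' processing notes the build was mm10 and the tools were MACS2 2.1.3, Bowtie2 2.3.5, Trim Galore 0.6.0, Picard, STAR 2.7.0f and deepTools, with no role given for each. The peak threshold and read counter are not given in the sources used here. For RNA-seq, the deposited table holds raw counts per gene symbol, per the file headers. The deposited m6A lists give a fold ratio and a p-value per peak, and only the presence of a peak was used.

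Regions were made as the report describes, with Python 3.11.15, NumPy 2.4.6 and pandas 2.3.3, and figures with Matplotlib 3.10.9. For RNA, edgeR 4.0.16 (R 4.3.3) was used with TMM scaling, its default low-count filter and the quasi-likelihood test, adjusted by Benjamini-Hochberg over 11718 genes at a threshold of 0.05, and DESeq2 1.42.0 was an alternative. On simulated data with the depth of the tumour libraries this found 92.8% of the 2-fold and 100% of the 4-fold changes, with 3.08% false calls. Only a small set of genes was changed there, up and down alike. Changes under 2-fold were not simulated, and of the genes called in the data only 381 changed at least 2-fold. The peak steps were also tested on simulated data.

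The plan was to use the nearest start unless the reference gave strand for under 80% of protein-coding genes. It did for 79.9%, so the nearest gene end was used. Of the tested genes, 99.6% were placed on RefSeq.

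Named were the 6 strongest regions, any gene nearest to at least 3 regions, the 10 largest rises and falls (mean of at least 10 CPM, no overlap between groups, no predicted or Rik symbols), up to 3 genes from each list, and the 5 most abundant genes with a start within 1 kb. Members and lists were chosen with earlier results of these data known. Alternatives were other list lengths, rankings, windows, distances, gene assignments, scalings and filters, and leaving out each library.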

Additional observations from a re-analysis of the deposited data

How the results depend on the processing

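The number of shFto-only regions was 353 with all deposited peaks in place of equal list lengths, and 1213 to 1531 when 1 ATAC-seq library was left out, where fewer lists set the rule. With the top 50000 peaks of every list it was 633, but only 33 of the 774 regions (4.26%) were among them, so which regions are chosen depends on the list length. Ranking by -log10 p left all 774, and 200-base summit windows gave 877, overlapping 765. Leaving out 1 RNA library gave 68 to 108 genes that rose, 27 to 54 that fell and a median log2 fold change of 0.08 to 0.10. Each time the share of rises was above that of all genes and the share of falls below it.

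The median was 0.13 without TMM scaling. With a limit of 10 kb, 42 of 175 genes rose (24%), 30 fell (17.1%) and the median was 0.06, and with 100 kb the median was 0.09. Of 293 genes whose body overlaps a region, 73 rose (24.9%), 26 fell (8.87%) and the median was 0.09. Regions from all deposited peaks gave 49 rises (26.3%) and 26 falls (14%) among 186 genes and a median of 0.05. Regions from summit windows gave a median of 0.07. Other settings were chosen after seeing the data. The nearest start gave a median of 0.06, and regions off chromosome 16 gave 0.07. Regions with no deposited shNC peak gave 37 rises (27.8%) and 17 falls (12.8%) among 133 genes and a median of 0.07. In all these settings of distance and region, 15.9% of all genes rose and 16.9% fell. Smaller counts there come with fewer genes tested. DESeq2 gave 97 rises (25.9%) and 43 falls (11.5%) among 375 genes, where 15.5% of all genes rose and 16.4% fell.

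With the replicate number as a block, 93 of 375 genes rose (24.8%) and 45 fell (12%), where 15.4% and 16.4% of all genes did. The median was 0.08. Same-numbered RNA libraries had correlations of their deviations of 0.0221, 0.0489 and -0.0111, so the numbers were not taken to pair them. The block ended the calls of P4ha1 and Thbs2 (adjusted p 0.0582 and 0.0526) among the named genes. Over 46 named genes no called gene changed direction, the small differences of Lrrc1, Zc3h13, Cd276 and Slc7a5, none of them called, turned sign under some settings, and 11 lost a call under at least 1 setting.

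The peak lists give no read counts, so a region absent from the shNC lists was not detected at their depth, which is unknown, and its absence was not shown.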
